A study of Homo sapiens with 3 samples.

Results

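The genes described here are 9 genes of the aryl hydrocarbon receptor (AHR) pathway and the response to tobacco smoke, which are AHR, ARNT, AHRR, CYP1A1, CYP1A2, CYP1B1, NQO1, TIPARP and ALDH3A1. They were chosen by name from the 20163 protein-coding genes of GENCODE 44 mapped to hg19, and every histone peak over a gene or within 50 kb of it was taken. This gave 36 of the 24096 peaks of H3K27ac and 34 of the 18585 peaks of H3K4me3. H3K4me3 is histone H3 trimethylated at lysine 4, a mark commonly found at active promoters. H3K27ac is histone H3 acetylated at lysine 27, found at active promoters and enhancers.

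The study mapped these marks by ChIP-seq in H2087, an established human lung adenocarcinoma line, to find regions of modified histones in lung adenocarcinoma cells. Its 3 samples are 1 library precipitated with an H3K27ac antibody, 1 with an H3K4me3 antibody and 1 input library, which was not analysed here. All came from untreated cells of this 1 line grown in RPMI medium with serum, and no ligand of AHR is named in the labels. Each mark is therefore a group of 1 library, without replicates and without a test, and the values describe these libraries.

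AHR is a transcription factor held in the cytosol in a complex with HSP90 and cochaperones until it binds a ligand, such as a polycyclic aromatic hydrocarbon of tobacco smoke or a dioxin. It then enters the nucleus, pairs with ARNT and binds DNA at a short motif with the core GCGTG, also called the xenobiotic response element. Its best known targets are the CYP1 enzymes, which oxidise the hydrocarbons of smoke, and in airway epithelium these genes are known for their induction by smoking. AHRR and TIPARP are targets that act back on the receptor.

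Of the 9 genes, ARNT, AHRR, CYP1B1, NQO1 and TIPARP carried peaks of both marks within 1 kb of the start of their canonical transcript, which is the main transcript chosen by the annotation. AHR carried only H3K4me3 there, CYP1A1 carried only H3K27ac, and no peak of either mark was found at the starts of CYP1A2 and ALDH3A1. The H3K4me3 peaks at ARNT, TIPARP and AHR were among the higher ones of marked starts in this library, and those at NQO1, CYP1B1 and AHRR were below the middle. The 4 classes were of very different size among the 19881 protein-coding genes with a canonical start. Both marks were found at 4101 of these starts (20.6%), H3K4me3 alone at 4215 (21.2%), H3K27ac alone at 976 (4.91%), the class of CYP1A1, and neither mark at 10589 (53.3%).

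The count of marked starts depended on which base was taken as the start. At the outermost 5′ base of each gene model, H3K4me3 was found at 4 of the 9 genes, AHR, ARNT, AHRR and NQO1, against 38.2% of all protein-coding genes. H3K27ac was found at AHR, ARNT, AHRR and CYP1A1, also 4 of 9, against 23.6% of all genes. At the canonical start, a definition added after the peaks had been seen, each mark was found at 6 of the 9 genes, against 41.8% of the starts for H3K4me3 and 25.5% for H3K27ac. When the start of any annotated transcript was allowed, H3K4me3 was found at 6 genes against 45.4% and H3K27ac at 7 against 30.7%. The calls of 4 genes differed between the outermost and the canonical start. For AHR, CYP1B1 and TIPARP, isoforms begin more than 1 kb upstream of the canonical start. For NQO1, the starts are 108 bp apart and the edge of an H3K27ac peak lay 1055 bp from the outer and 947 bp from the canonical start, on either side of the 1 kb limit. The canonical start lies 382 kb inside the gene for AHR, 33.8 kb for CYP1B1 and 1.35 kb for TIPARP, and at most 0.645 kb for the other genes. With 9 genes, no more than the counts is read from these shares.

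**Figure D1:**
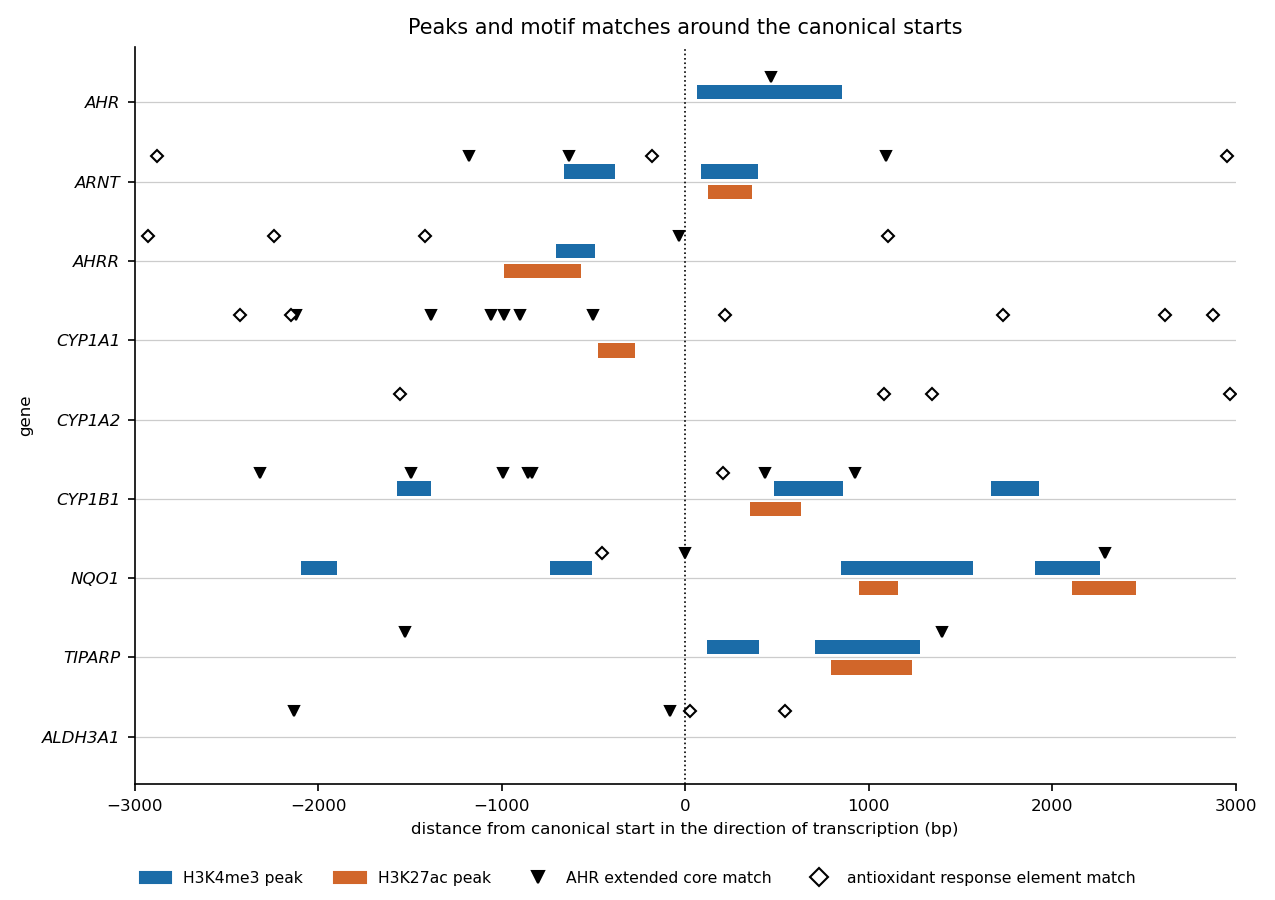
Peaks of H3K4me3 (blue, above each line) and H3K27ac (orange, below) within 3 kb of the canonical start of each gene, with distance in bp in the direction of transcription on the horizontal axis and the genes on the vertical axis. Triangles are matches of TNGCGTG and open diamonds matches of TGACNNNGC, on either strand. CYP1A1 has a single H3K27ac peak on the upstream side with 6 triangles, all upstream, and CYP1A2 and ALDH3A1 have no peak.

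The height of a peak is given as the −log10 q, the significance that the peak caller assigned to its summit, which ranks peaks within a list and was not compared between the marks. Its median was 2.97 (interquartile range 2.20 to 4.33) in the H3K4me3 list and 2.65 (1.89 to 3.55) in the H3K27ac list. It can move with local copy number, which was not assessed here. Over the genes, or within 3 kb of the start of one of their transcripts, there were 17 H3K4me3 peaks, with values from 1.34 to 7.97 and a median of 2.63, and 8 of them lay above the list's median. The 16 H3K27ac peaks ranged from 1.31 to 4.32 with a median of 2.75, and 10 lay above their list's median. As a group the peaks of these genes were thus close to the middle of each list, and the spread among the genes was wide.

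AHR, the receptor, spans chr7:16955983-17385776 on the plus strand, and its canonical transcript starts at 17338276. An H3K4me3 peak of 791 bp at 17338341 to 17339131 covered exon 1, with UTR and coding bases, and had 2 summits and a −log10 q of 7.09. This was higher than the strongest H3K4me3 peak of 89.5% of the 8316 marked canonical starts. The same peak also lay over ENSG00000237773, a long noncoding RNA gene on the other strand, and over ENSG00000283321, a readthrough gene, so the mark cannot be assigned to AHR alone. No H3K27ac peak was found near this start, and the closest edge was 232629 bp away.

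The H3K27ac peaks of AHR lay instead in the far upstream part of the gene, which only long isoforms cover. At the outer 5′ end, a 723-bp H3K27ac peak at 16956427 to 16957149 had a −log10 q of 4.29, higher than 84.4% of the list. It shared 193 bp with an H3K4me3 peak of 253 bp with a value of 3.56. A further 5 H3K27ac peaks followed between 16974336 and 17105647, with values from 1.55 to 3.22. An H3K4me3 peak of 2.26 at 17004403 overlapped none of them. By distance, AGR3 was the protein-coding gene with the nearest canonical start for every one of these distal peaks, so their assignment to AHR rests on the long isoforms.

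ARNT, the partner with which AHR binds DNA, spans chr1:150782189-150849184 on the minus strand. Its start had the highest H3K4me3 values of the 9 genes, at 7.97, higher than 93.3% of marked starts. A 309-bp H3K4me3 peak at 150848679 to 150848987 in intron 1 wholly contained a 236-bp H3K27ac peak with a value of 3.92, which was higher than 70.1% of the 5077 canonical starts marked by H3K27ac. Another H3K4me3 peak of 279 bp, centred 521 bp upstream of the canonical start, had the same value of 7.97 and no H3K27ac. Of the 24-base words of this upstream peak, 84.6% occurred more than once in the genome, whereas none of those of the intron 1 peaks did. Reads from such a sequence can be hard to place, and the part of this in the peak was not tested. Within 3 kb of the start, both of the matches of the AHR core under ARNT peaks lay in it.

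AHRR, the repressor that competes with AHR for ARNT, spans chr5:321829-438406 on the plus strand. It had weakly marked sequence upstream of its start. An H3K4me3 peak at 321124 to 321337 had a value of 1.72, higher than only 7.31% of marked starts. It shared 139 bp with an H3K27ac peak of 421 bp and a value of 2.74. Both lie within the readthrough gene PDCD6-AHRR. Inside the gene, H3K4me3 peaks in intron 3 and intron 4 had values of 1.40 and 1.34, near the lowest of the list, and no H3K27ac peak lay over AHRR. With 12 H3K27ac and 9 H3K4me3 peaks within 50 kb, AHRR had more than 94.1% and 93.8% of all genes, but these counts came mostly from neighbours. The highest H3K4me3 peak (6.90) had EXOC3 as the gene with the nearest canonical start. For H3K27ac, a pair of peaks shared the highest printed value of 6.73, one downstream of AHRR and nearest to the start of EXOC3 and the other upstream and nearest to that of PDCD6-AHRR.

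TIPARP, a mono-ADP-ribosyltransferase that limits AHR activity, spans chr3:156391024-156424559 on the plus strand, with the canonical start at 156392379. In intron 1, a 575-bp H3K4me3 peak with a value of 7.36, higher than 91.2% of marked starts, wholly contained a 444-bp H3K27ac peak of 4.32, higher than 75.6%. An H3K4me3 peak of 3.15 lay over UTR bases of exon 1, and a lone H3K27ac peak of 1.64 in intron 2, 15.2 kb into the transcript.

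CYP1A1, the hydrocarbon hydroxylase that is the classical readout of AHR activity, spans chr15:75011883-75017877 on the minus strand. Its whole record was 1 H3K27ac peak of 203 bp at 75018144 to 75018346. Its −log10 q of 2.83 was higher than 60.0% of the H3K27ac list, but higher than only 46.7% of the 5077 canonical starts marked by H3K27ac. The centre of this peak lay 376 bp upstream of the canonical start. No H3K4me3 peak lay at the gene, and the only one within 50 kb, with a value of 3.06, was over EDC3 and 42.1 kb downstream of the start. CYP1A1 was thus in the smallest of the 4 classes of starts under both definitions (4.91% of canonical and 4.99% of outer starts).

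CYP1A2, the sister enzyme best known from liver, spans chr15:75041186-75048948 on the plus strand, head to head with CYP1A1, and the canonical starts of the pair are 23.3 kb apart. No peak lay over CYP1A2 or within 3 kb of its start. The nearest H3K27ac peak was the one at CYP1A1, whose edge lay 22840 bp upstream. Its other 3 H3K27ac and 2 H3K4me3 peaks within 50 kb, with values from 2.22 to 3.87, had CSK as the gene with the nearest canonical start.

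Both the extended motif TNGCGTG and its core GCGTG were dense upstream of CYP1A1. In the 1 kb before the canonical start there were 3 matches of TNGCGTG, where 0.226% of the 19881 starts had at least 3 and 19.2% had any. Within 3 kb of the start there were 6, all upstream, and none lay under a peak. The closest lay 20 bp beyond the upstream edge of the H3K27ac peak. CYP1A2 had no match of TNGCGTG within 3 kb. The peak with this closest match (chr15:75018144-75018392) and the cluster of the next 3 matches, which carried no peak (chr15:75018751-75018940), are shown on hg19 in the direction of CYP1A1, the minus strand. Capitals mark 7 letters for TNGCGTG and 5 for GCGTG alone, on either strand.
CYP1A1 upstream H3K27ac peak and the match beside it: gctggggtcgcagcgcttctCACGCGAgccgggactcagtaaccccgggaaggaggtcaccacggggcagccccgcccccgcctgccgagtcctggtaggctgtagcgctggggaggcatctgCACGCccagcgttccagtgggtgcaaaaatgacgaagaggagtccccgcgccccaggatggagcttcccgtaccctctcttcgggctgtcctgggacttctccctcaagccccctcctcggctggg
CYP1A1 upstream cluster of matches: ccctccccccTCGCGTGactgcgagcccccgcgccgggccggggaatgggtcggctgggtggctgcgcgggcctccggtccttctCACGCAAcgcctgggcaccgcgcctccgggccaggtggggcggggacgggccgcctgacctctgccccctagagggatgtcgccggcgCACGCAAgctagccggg

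CYP1B1, which activates smoke hydrocarbons in lung and other tissues outside the liver, spans chr2:38294116-38337044 on the minus strand with the canonical start at 38303293. Unlike CYP1A1 it carried both marks downstream of the start. An H3K4me3 peak at 38302432 to 38302811, over UTR and coding bases of exon 2, had a value of 2.24, higher than 17.1% of marked starts. It shared 148 bp with an H3K27ac peak at 38302664 to 38302938 with a value of 2.76, higher than 38.5%. Further H3K4me3 peaks lay over coding sequence of exon 2 (1.60) and 1478 bp upstream of the start (2.18). The highest H3K27ac peaks of the gene were a pair about 20 kb upstream, centred 19.8 kb and 20.8 kb before the canonical start, with values of 3.09 and 4.04. All 6 peaks also lay over the antisense gene CYP1B1-AS1.

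Like CYP1A1, CYP1B1 had 3 matches of TNGCGTG in the 1 kb upstream of its canonical start. Within 3 kb there were 7, of which 1 lay under an H3K27ac peak and another under an H3K4me3 peak. The latter is the upstream H3K4me3 peak (chr2:38304680-38304862). It is shown with the cluster of 3 matches nearer to the start, which carried no peak (chr2:38304114-38304295). Both are hg19, minus strand, with capitals as above.
CYP1B1 upstream H3K4me3 peak: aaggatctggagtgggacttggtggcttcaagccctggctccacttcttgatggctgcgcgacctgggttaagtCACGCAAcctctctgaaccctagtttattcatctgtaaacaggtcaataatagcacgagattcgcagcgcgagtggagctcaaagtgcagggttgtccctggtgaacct
CYP1B1 upstream cluster of matches: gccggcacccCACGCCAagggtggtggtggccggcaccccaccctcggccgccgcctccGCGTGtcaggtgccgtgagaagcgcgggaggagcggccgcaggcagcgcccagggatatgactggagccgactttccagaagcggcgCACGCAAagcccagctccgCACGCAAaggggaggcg

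NQO1, a quinone reductase that is a target of both AHR and the oxidative stress factor NRF2, spans chr16:69740899-69760571 on the minus strand. It had the most H3K4me3 peaks of the 9 genes close to its start, 4 within 3 kb. The one centred 624 bp upstream and over the divergent transcript NQO1-DT had a value of 3.30, higher than 38.1% of marked starts. In intron 1, an H3K4me3 peak of 715 bp (2.49) contained the whole of an H3K27ac peak of 212 bp whose value of 1.31 was almost the lowest of the list, higher than 0.0623% of it. This is the H3K27ac peak whose edge lay just inside the 1 kb of the canonical start that counted as marked. The next member peak outside that limit was the upstream H3K4me3 peak of CYP1B1, at 1387 bp.

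Deeper in intron 1 of NQO1, an H3K4me3 peak of 4.60 and an H3K27ac peak of 2.22 shared 151 bp. This place was partly repeated sequence, since 45.5% of the 24-base words of the H3K4me3 peak and 69.7% of those of the H3K27ac peak occurred more than once in the genome. Of the H3K4me3 peaks within 3 kb of the start, the most distant upstream one (2.63) had 55.6% repeated words. What part this has in these peaks was not tested. Among all peaks, over 50% of the words were repeated in 19.3% of the H3K27ac and 14.2% of the H3K4me3 list, and among the peaks of the 9 genes in 1 of 16 and 2 of 17.

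The antioxidant response element, the motif of NRF2, was searched in NQO1 as TGACNNNGC. A match with its first base at −455 relative to the canonical start lay 54 bp outside the upstream H3K4me3 peak, on the side of the gene, and was the only one within 3 kb.

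ALDH3A1, an aldehyde dehydrogenase induced through AHR, spans chr17:19641297-19652256 on the minus strand. No peak of either mark lay over it or within 3 kb of a start. Within 50 kb, 3 H3K27ac peaks (1.37 to 2.09) and an H3K4me3 peak of 6.22 were nearest to the start of SLC47A2. An H3K4me3 peak of 1.55 lay 48.2 kb upstream, over ULK2. Read depth is not known for these libraries, and too few reads could also leave a gene without peaks.

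**Figure D2:**
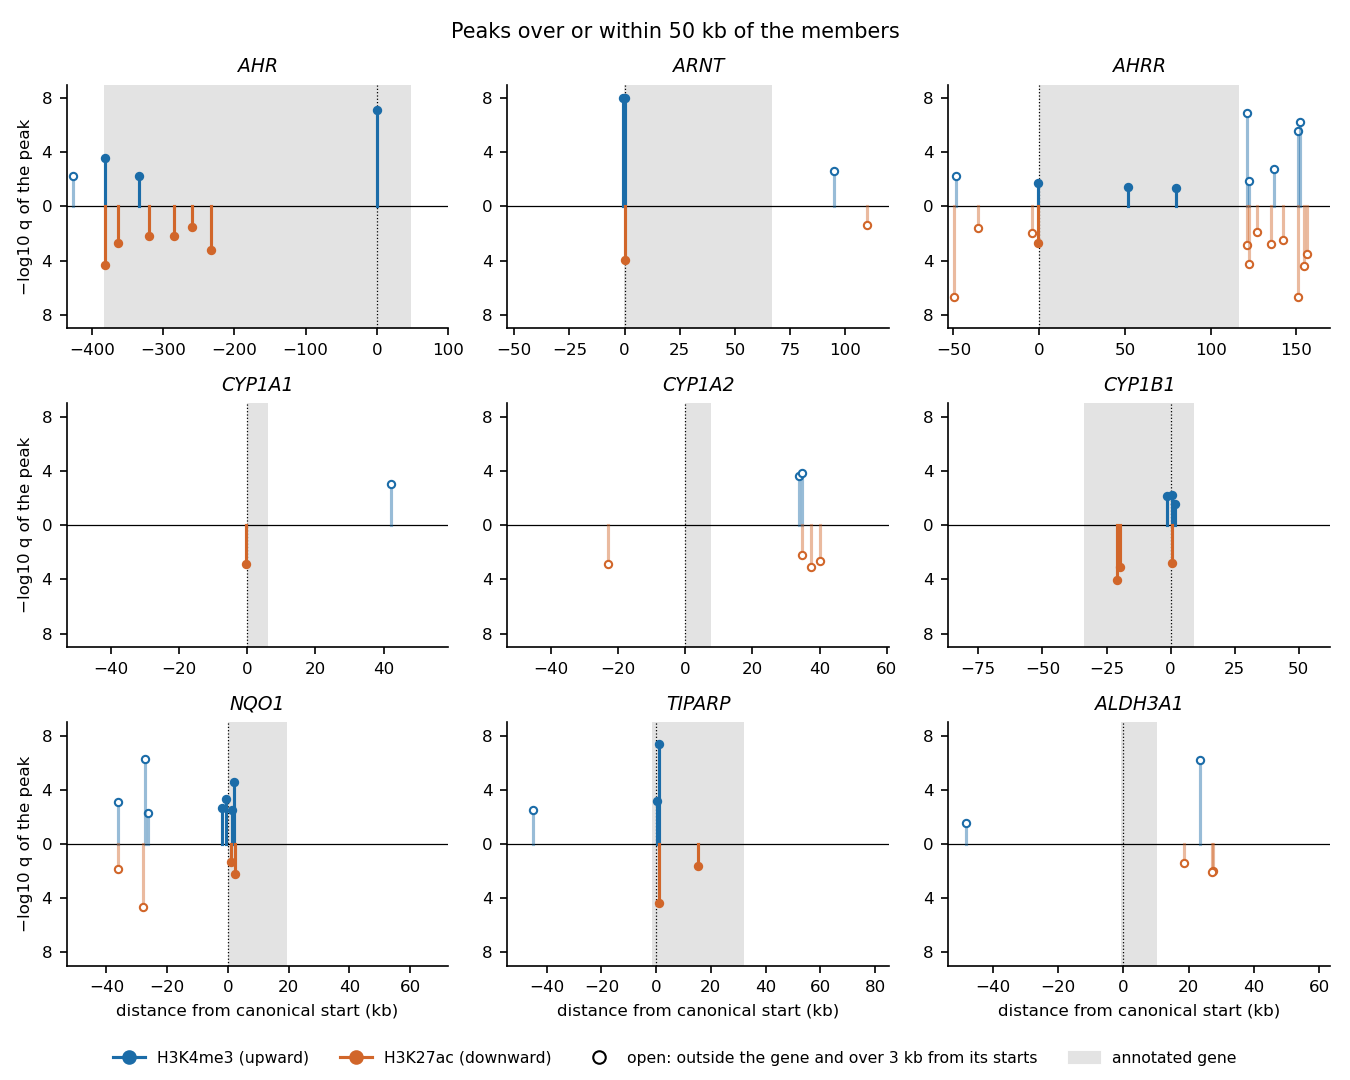
All peaks over or within 50 kb of each gene, with the distance from the canonical start in kb in the direction of transcription on the horizontal axis (the scale differs by gene) and the −log10 q on the vertical axis, upward for H3K4me3 and downward for H3K27ac. Filled points lie over the gene or within 3 kb of one of its starts, open points are the rest, and the grey area is the annotated gene. The H3K27ac peaks of AHR lie 232629 bp or more before its canonical start, and the dense open points of AHRR lie beyond its 3′ end.

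Within 50 kb, every one of the 9 genes had a peak of each mark, where 63.9% of all protein-coding genes had one of H3K27ac and 70.2% one of H3K4me3. The median over the 9 genes was 3 peaks for either mark, against 1 for H3K27ac and 2 for H3K4me3 over all genes. The counts ran from 1 at CYP1A1 to 12 at AHRR for H3K27ac, and from 1 at CYP1A1 to 9 at AHRR for H3K4me3. This reach takes in neighbouring genes. Of the 20 H3K27ac peaks that lay neither over a gene nor within 3 kb of its starts, 19 were nearest to the canonical start of another gene, and so were 15 of the 17 such H3K4me3 peaks. Over the gene itself, H3K27ac was found at 5 of the 9, AHR, ARNT, CYP1B1, NQO1 and TIPARP, against 36.8% of all genes. H3K4me3 was found over the same genes and AHRR, 6 of 9, against 46.4%.

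The marks shared at least 1 bp at 12 of the 36 H3K27ac peaks, or 33.3% (exact Clopper-Pearson 95% interval 18.6 to 51.0), and at 12 of the 34 H3K4me3 peaks, or 35.3% (19.7 to 53.5). The shares of the whole lists were 24.0% and 31.1%. The intervals cover counting error only and treat the peaks as independent, yet 12 of the 36 H3K27ac peaks lay around AHRR alone. Of the 36, 20 lay neither over a gene nor within 3 kb of its starts. The intervals therefore do not compare the 9 genes with the lists. Of the peaks at the genes themselves, 7 of 16 H3K27ac peaks and 7 of 17 H3K4me3 peaks overlapped the other mark, at AHR, ARNT, AHRR, CYP1B1 and TIPARP once each and at NQO1 in 2 places.

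**Figure D3:**
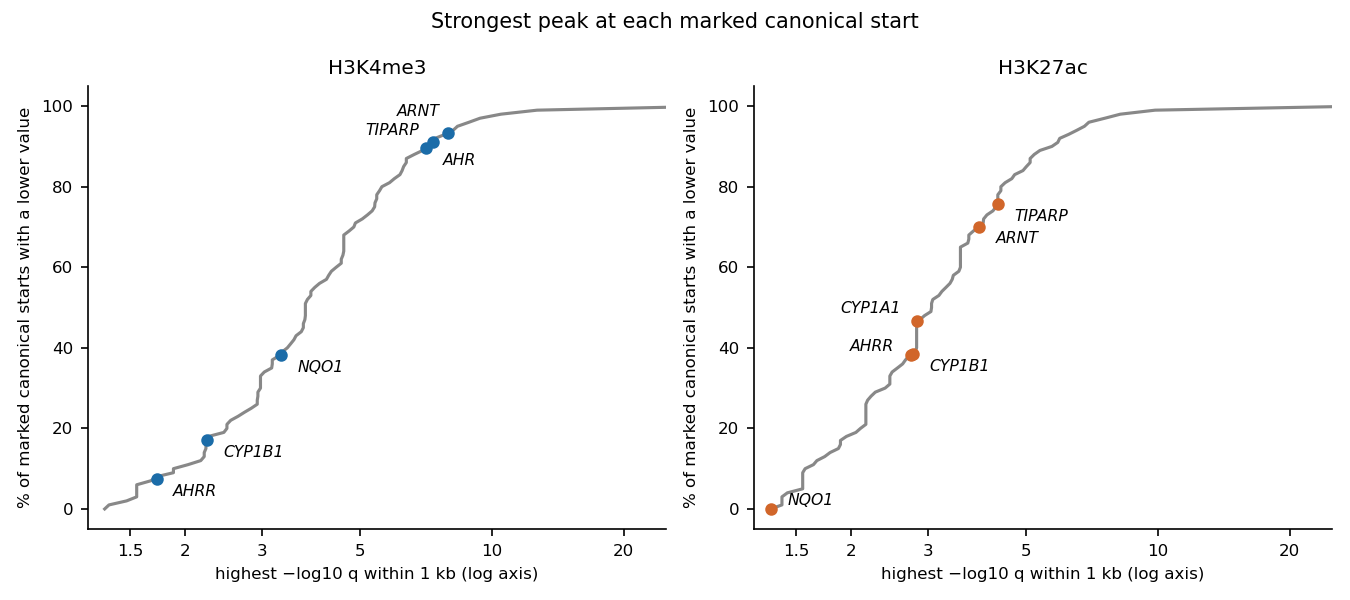
The highest −log10 q within 1 kb of each marked canonical start (log axis) against the percentage of marked starts with a lower value, for H3K4me3 (left) and H3K27ac (right). The grey line runs over all marked starts and the points are the genes described here. For H3K4me3, ARNT, TIPARP and AHR lie between 89.5% and 93.3% and the other 3 at 38.1% or lower, and for H3K27ac TIPARP and ARNT are highest and NQO1 is at the bottom.

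Across the genes the order of the start peaks was similar in part only. TIPARP and ARNT were the highest of the 6 marked starts for H3K27ac and were among the 3 highest for H3K4me3. AHR was among the 3 highest for H3K4me3 and had no H3K27ac at its canonical start. NQO1 was above AHRR and CYP1B1 for H3K4me3 and below both for H3K27ac. Without replicates, the error of a single value is unknown, and AHRR (38.2%) and CYP1B1 (38.5%) cannot be ordered.

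Motif matches under the peaks were counted in 300-bp windows around each centre, on both strands. The AHR core GCGTG was found in 4 of the 16 H3K27ac windows and 7 of the 17 H3K4me3 windows, against 35.3% and 39.7% of all windows of the lists. The extended form TNGCGTG, which contains the core, was found in 4 of the H3K27ac windows, at AHR, CYP1A1, CYP1B1 and NQO1, against 6.63% of all. It was found in 3 of the H3K4me3 windows, at AHR, ARNT and CYP1B1, against 7.10%. The CYP1A1 match lay outside the peak itself. The matches at NQO1 and ARNT lay in the peaks of partly repeated sequence given above. Whether the bases at these matches are themselves repeated was not examined. The element TGACNNNGC was found in 1 window of each mark, both at AHR, against 12.7% and 11.5%. The E-box CACGTG was found in none, against 5.06% and 4.62%. The median GC content of the windows was 52.2% for H3K27ac and 60.7% for H3K4me3, with 55.7% and 59.7% over the lists.

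In the promoters themselves, taken from 250 bases before to 50 after the canonical start, TNGCGTG was found at AHRR, NQO1 and ALDH3A1, against 6.70% of all promoters. TGACNNNGC was found at ARNT and ALDH3A1, against 14.0%, and CACGTG at AHR alone, against 8.76%. In the 1 kb upstream, TIPARP had 6 matches of the core GCGTG, a number reached at 3.22% of all starts, and CYP1A1 and CYP1B1 had 5 each, reached at 6.50%. ALDH3A1 had 4 and no peak. None of the core matches of TIPARP in this 1 kb had the extended form TNGCGTG. A match says only that the letters are present in hg19.

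The other genes of the pathway were taken from lists of 48 genes, of which 47 had a canonical start (GSTT1 had none). H3K27ac was found at 14 of these starts (29.8%) and H3K4me3 at 14 (29.8%), where the shares of all canonical starts were 25.5% and 41.8%. The exact Clopper-Pearson interval of 17.3% to 44.9%, the same for each mark, contained the share of all starts for either mark. These counts therefore do not show that either mark was rarer or more frequent at these genes. Both marks were found at 10 and neither at 29. The genes of the receptor complex and its coactivators were marked most often, with H3K4me3 at 8 of 11 and H3K27ac at 7. They included the chaperone gene HSP90AA1 (H3K4me3 1.51, H3K27ac 3.23) and the cochaperone gene PTGES3 (2.49 and 3.55), which like the marked genes of the shorter lists were named after their values were seen. SRC, a kinase released from the complex, had the highest H3K27ac value of all 47 starts (5.62), followed by HSP90AB1 (3.80) and EPAS1 (3.61). The highest H3K4me3 values were those of the coactivators NCOA2 (8.06) and NCOA1 (6.39) and of NPAS2 (6.39), a circadian factor of the same protein family as AHR. EP300 and SMARCA4 had neither mark.

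Among 5 further genes of the ARNT and hypoxia branch, H3K4me3 was found at HIF1A, EPAS1 and NPAS2 and H3K27ac at EPAS1, and the neural factors SIM1 and SIM2 had neither. Of 10 other reported targets or partners in the stress response, 3 were marked. These were the amino acid transporter SLC7A5 (H3K4me3 4.60, H3K27ac 3.55), NFE2L2, which encodes NRF2 (2.26 and 1.74), and its inhibitor KEAP1 (H3K27ac 2.16 alone). The conjugating enzymes UGT1A6, UGT1A1, GSTA1 and GSTA2 had no mark, nor had CYP2S1, SERPINB2 and IL1B. None of 5 enzymes of tryptophan metabolism listed under ligand formation, IDO1, TDO2, KYNU, KMO and IL4I1, was marked at the start. KYNU had 1 H3K4me3 peak elsewhere over the gene. Of 11 enzymes of smoke carcinogen metabolism, GSTP1 was the only one marked at the start, by H3K27ac (1.77). EPHX1, GSTM1, CYP2A6, CYP2A13, CYP2E1, CYP2F1, AKR1C1, AKR1C2, AKR1C3 and AKR1B10 had no peak at the start. Elsewhere over the gene, EPHX1 had 3 H3K27ac peaks and 1 H3K4me3 peak, and AKR1B10 had 1 H3K27ac peak. Of 5 genes known for DNA methylation that differs with smoking, LRP5 had both marks at the start and RARA had H3K27ac. F2RL3, GPR15 and GFI1 had neither there, and GFI1 had 2 H3K4me3 peaks elsewhere over the gene. AHRR is another gene of this kind. Of all canonical starts, 25.5% had H3K27ac, 41.8% had H3K4me3 and 53.3% had neither mark. The exact Clopper-Pearson intervals of these small lists contained the share of all starts for each mark, apart from H3K4me3 in smoke carcinogen metabolism. There H3K4me3 was found at 0 of 11 starts (0 to 28.5%). The lists were chosen with earlier results known, and these shares were not tested.

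**Figure D4:**
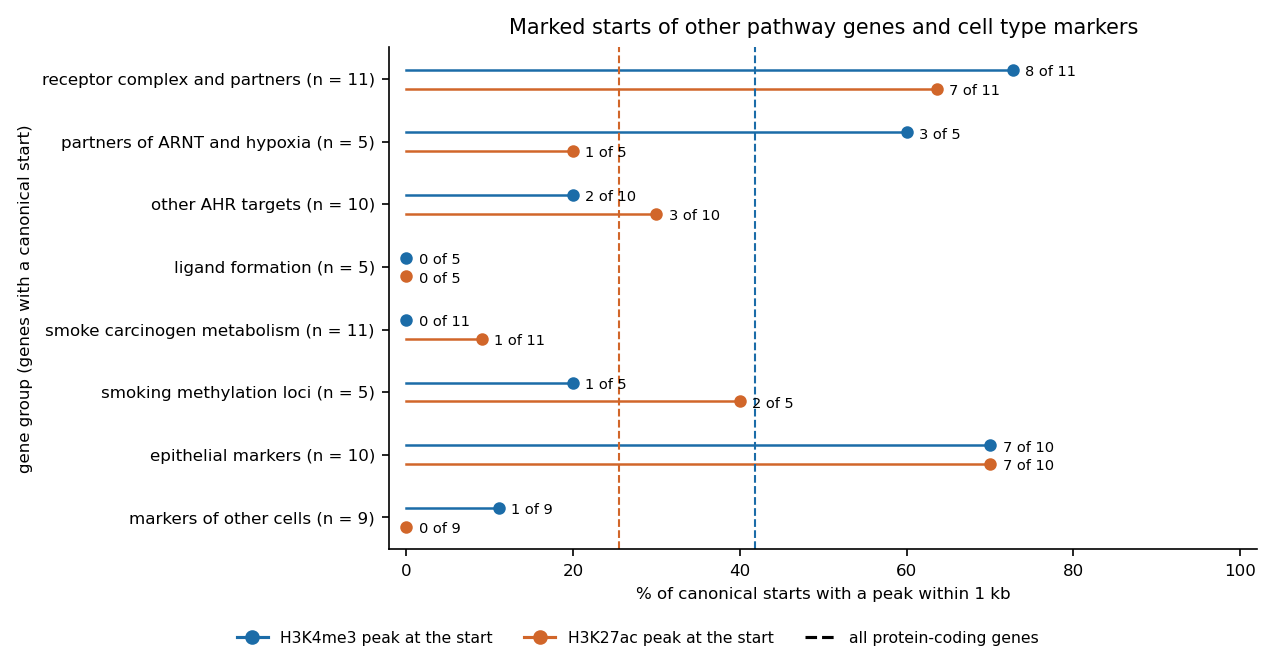
Share of canonical starts with a peak within 1 kb for each list of other pathway genes and of cell type markers, in percent, with the count beside each point. Blue is H3K4me3 and orange H3K27ac, and the dashed lines are the shares over all protein-coding genes, 41.8% and 25.5%. Receptor complex genes and epithelial markers lie to the right of both lines, and ligand formation, smoke carcinogen metabolism and markers of other cells lie to the left. No intervals are drawn, and most exact Clopper-Pearson intervals contained the line of their mark. Those that did not were H3K27ac at receptor complex genes (30.8% to 89.1%) and epithelial markers (34.8% to 93.3%), and H3K4me3 at smoke carcinogen metabolism (0 to 28.5%).

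The labelled cell type was compared with markers at the same starts. Of 10 epithelial markers, the general epithelial genes KRT7, KRT8, KRT18, KRT19, EPCAM and CDH1 had both marks. Of the 4 that mark lung epithelium more closely, NKX2-1 had both, and the surfactant genes SFTPB and SFTPC and NAPSA had neither. Of 9 markers of leucocytes, fibroblasts and endothelium with a start in the annotation (PECAM1 had no match), none had H3K27ac at the start. CD14 had H3K4me3 there, with a highest value of 1.60, and 2 H3K4me3 peaks over the gene in all. Over the gene but away from that start, H3K27ac peaks lay in VWF (2), COL1A1 (1) and CDH5 (1). H3K4me3 peaks lay so in COL1A1 (2) and in the epithelial marker NAPSA (1). Among all canonical starts, 25.5% had H3K27ac, 41.8% had H3K4me3 and 20.6% had both. For the markers of other cells, the exact Clopper-Pearson intervals were 0 to 33.6% (H3K27ac) and 0.281% to 48.2% (H3K4me3). Both contained the share of all starts, so these counts do not show that a mark was rarer at them. For the epithelial markers, the interval of 34.8% to 93.3% contained the share for H3K4me3 and lay above that for H3K27ac.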

How the data were processed

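Sonicated chromatin of H2087 cells was precipitated with antibodies ab4729 (H3K27ac) or ab8580 (H3K4me3) and sequenced. Per the submitters' notes, reads were aligned to hg19 with Bowtie 1.1.1 and peaks called with MACS2 2.1.0, with bcl2fastq 1.8.4, SAMtools 1.2, Picard 1.118 and ChIPseeker 1.6.6 also named. The input was kept for normalization according to the study's methods. Whether it was the control in MACS2, the calling threshold and the treatment of duplicate reads are not given in the sources used here. The deposited lists give a −log10 value per summit in a column without a header, which was read as the −log10 q of the authors' peak caller from the numbers, the lowest being 1.303 and 1.306. Both lists are of 1 library each and carry no read counts, so depth and precision are unknown.

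The 25275 H3K27ac and 20282 H3K4me3 entries were reduced to distinct intervals, each with its highest value. Genes came from GENCODE 44 lifted to GRCh37, the same build, and positions are 1-based. A start was marked when a peak edge lay within 1 kb. Each of the 9 genes was described with every peak over it or within 3 kb of a transcript start, and other pathway genes by counts with the 3 highest values per mark. The genes and lists were chosen with earlier results of these data known. Motifs, sequences and repeated 24-base words, taken every 10 bases, were read from the GRCh37 genome on both strands. Interval counting and motif matching were tested on simulated data. Python 3.11.15, pandas 2.3.3, numpy 2.4.6, SciPy 1.17.1, samtools 1.23.1 and matplotlib 3.10.9 were used. The alternatives were other starts, distances, overlaps, motif forms and parts of the lists. Some items are not reported here.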

Additional observations from a re-analysis of the deposited data

How the results depend on the processing

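Of 27 alternatives to 7 counts or shares, 17 left the value within 1.5 times or within its interval and 10 moved it. Among genes with a mark at the outer start, a −log10 q of at least 5 left 1 of 4 for H3K4me3 (ARNT) and 0 of 4 for H3K27ac, and the start of every transcript raised the H3K27ac count to 7. This threshold was not run as an alternative at the canonical start. There the highest H3K4me3 values were above 5 at ARNT (7.97), TIPARP (7.36) and AHR (7.09). They were below 5 at NQO1 (3.30), CYP1B1 (2.24) and AHRR (1.72), and no H3K27ac value there was above 4.32. Peaks within 50 kb fell from 36 to 20 (H3K27ac) and from 34 to 17 (H3K4me3) in the upper part of the lists, to 14 and 13 over the gene body only, and, for H3K4me3, to 20 within 20 kb. A reciprocal overlap of 50% lowered the share of H3K27ac peaks with H3K4me3 to 13.9%. The extended motif lowered the H3K4me3 windows with a match from 7 to 3. It contains the core, so its count could not rise, and over all H3K4me3 windows the share was 39.7% for the core and 7.10% for the extended form. Each mark has 1 library of unknown depth, so no replicate could be left out, and an unmarked start may be one with too few reads. No paired analysis was possible because each group holds 1 sample and no test was made.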
